A study of Mus musculus with 4 samples.

Results

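The genes described here are a set of 44 cell cycle and DNA replication genes, measured in the hippocampus of newborn mice, at postnatal day 2. A probe set, the group of array probes that reports a transcript, was a member where the platform annotation gave it a single gene symbol and that symbol was on the list. This gave 106 of the 45037 probe sets on the array, for 43 of the 44 genes and of 18193 genes named in all. Ccnb1 had no such probe set and is not analysed here. The list was divided by role into 11 replication genes, 22 mitosis genes, 8 G1 cyclins and cyclin-dependent kinases (CDKs), and 3 CDK inhibitors. The data were 4 Affymetrix arrays of total RNA, 2 from pups labelled Zbtb20 knockout and 2 from littermates labelled wildtype or control. Zbtb20 encodes a zinc finger transcription factor, and the study looked for genes that depend on it while the hippocampus forms. The sources used here do not give the knockout allele, the strain, or whether an array held a single pup or a pool, so the spread behind the p-values may be partly technical.

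At this age the mouse hippocampus still holds dividing progenitors, above all where the dentate gyrus is being built. A dividing cell passes through G1, in which D- and E-type cyclins with their CDKs release the E2F transcription factors, and then copies its DNA in S phase. It then builds a spindle and separates its chromosomes in mitosis. Replication genes are classic E2F targets, whereas many mitosis genes carry the cell cycle genes homology region (CHR) in their promoters, which the DREAM and MuvB complexes bind. CDK inhibitors hold cells in G1 or accompany their exit from the cycle.

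The arrays came on different scales, which coincided with the replicate number. The mean signal after trimming 2% at each end was 497 on the knockout and 498 on the control array of replicate 1, and 156 (knockout) and 158 (control) on those of replicate 2. Knockout was therefore set against control within each replicate number, as pair 1 (replicate 1 arrays) and pair 2 (replicate 2 arrays), and each within-pair value compares single arrays and has no p-value. Of the 9 Zbtb20 probe sets 0 were lower on the knockout array in both pairs, and the probe set with the widest differences had 2412 on the knockout and 4939 on the control array in pair 1, and 592 (knockout) and 284 (control) in pair 2. The genotype labels were thus not settled by the targeted gene, the sources used here do not place these probe sets relative to the deletion, and directions refer to the arrays as labelled. The replicate 1 arrays also carried albumin (Alb, a liver transcript), at 15195 on the knockout and 39309 on the control array, against 45.2 (knockout) and 42.2 (control) on those of replicate 2. Eif2s3y, a Y-linked gene, had 10.7 on the knockout and 304.5 on the control array in pair 1, and 830.1 (knockout) and 714 (control) in pair 2. Xist, which is transcribed from the inactive X chromosome, had 4093 on the knockout and 2994 on the control array in pair 1, and 39.9 (knockout) and 36.3 (control) in pair 2. On the control array of replicate 1 both were thus well above their lowest values, and whether it held RNA of pups of both sexes was not tested. Eif2s3y differed between the arrays of pair 1, so a difference of sex cannot be told apart from one of genotype there. The neuronal marker Rbfox3 (the NeuN antigen) was present on all 4 arrays, at 6311 and 1063 on the knockout arrays and 4942 and 1899 on the control arrays.

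The replication genes went in opposite directions in the pairs. Where a gene has a pair of differences below, the value of pair 1 comes before that of pair 2. In pair 1 all 24 of their probe sets above the brightness filter were lower on the knockout array than on the control array, as were 52.1% of all 27022 probe sets kept. In pair 2, 23 of the 24 were higher on the knockout array, with Pcna as the exception, and 55.1% of all were. Their median difference, on the log2(signal + 32.56) scale as knockout minus control, was -0.34 in pair 1 and 0.24 in pair 2, where the medians over all probe sets kept were -0.02 and 0.02. Of the replication probe sets 95.8% combined a lower value in pair 1 with a higher value in pair 2, against 30.5% of all. These signs depend on the labels: were the labels of either pair exchanged, the same 23 probe sets, and the same 30.5% of all, would lie on a single side in both pairs. Exchanged labels were not fitted. The filter kept a probe set where its mean over all 4 arrays was above the 40th percentile, and it left out 7 dim probe sets of these genes. In whole tissue, a different number of dividing cells and a different amount of RNA per dividing cell cannot be told apart, in either pair.

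No member passed the test across all 4 arrays. In limma's fit without the replicate number, 0 of 80 member probe sets and 0% of all 27022 passed an adjusted p of 0.05. The unadjusted p was under 0.05 for 0 members, against 0.0185% of all. When the replicate number entered as a block, limma called 0 of the 80 members and 0% of all. The blocked fit gave 1 of the 80 members an unadjusted p under 0.05, against 1.22% of all probe sets. An exact permutation test of 2 arrays against 2 cannot go below p = 0.333.

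**Figure D1:**
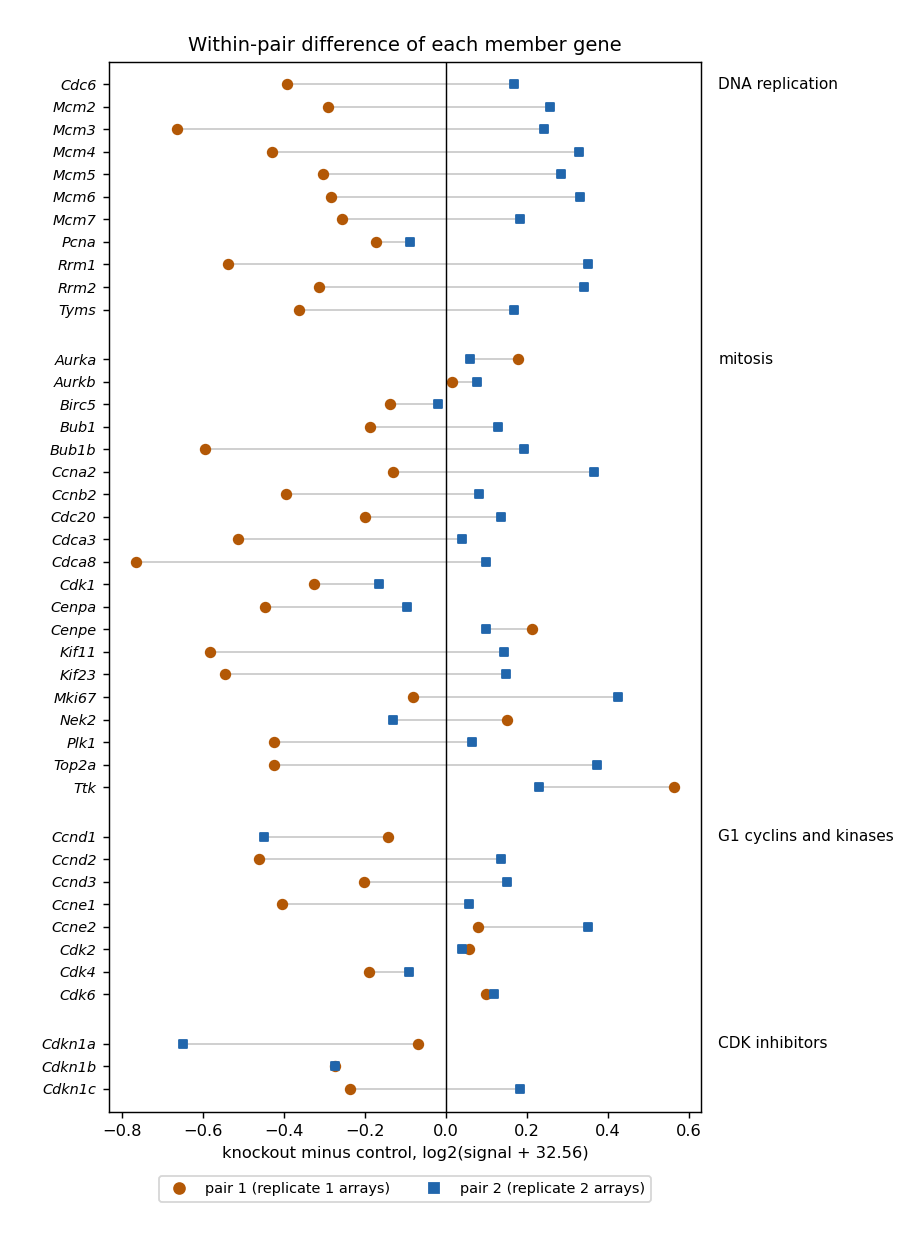
Knockout minus control on the log2(signal + 32.56) scale for the 42 member genes with a probe set above the filter, each at its brightest such probe set. Circles are pair 1 and squares pair 2, and a grey line joins both values of a gene. The replication genes lie left of 0 in pair 1 and, except Pcna, right of 0 in pair 2, while Cdkn1a, Cdkn1b, Ccnd1, Cdk1 and Cdk4 are among the genes left of 0 in both.

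The helicase that unwinds DNA at the replication fork is built from Mcm2 to Mcm7, and all 6 of its genes were measured, by 16 probe sets above the filter. All 16 were lower on the knockout array in pair 1, between -0.66 and -0.08, and all 16 were higher in pair 2, between 0.10 and 0.45. The widest pair 1 difference was that of Mcm3, whose brightest probe set had a signal of 349 on the knockout and 572 on the control array of replicate 1, and of 90.9 (knockout) and 71.9 (control) on those of replicate 2. Its 4 probe sets above the filter lay between -0.66 and -0.27 in pair 1 and between 0.10 and 0.24 in pair 2, while a dim one below the filter was at 0.52 and -0.07. Mcm4 had 542 on the knockout and 742 on the control array of replicate 1, and 274 (knockout) and 212 (control) on those of replicate 2. The knockout array was thus below its control in pair 1 and above it in pair 2 by ratios of 0.731 and 1.30. Mcm6 had 886 on the knockout and 1086 on the control array in pair 1, and 259 (knockout) and 199 (control) in pair 2. Mcm5 had 1001 on the knockout and 1243 on the control array of replicate 1, and 297 (knockout) and 238 (control) on those of replicate 2. Mcm5 and Mcm6 thus had similar steps, and Mcm2, another helicase subunit, the same signs. For Mcm2 the signals were 253 on the knockout and 317 on the control array in pair 1, and 224 (knockout) and 183 (control) in pair 2. The 4 probe sets of Mcm7 lay between -0.48 and -0.26 in pair 1 and between 0.13 and 0.27 in pair 2.

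Cdc6, which loads the helicase at origins, was at -0.39 in pair 1 and 0.17 in pair 2. Ribonucleotide reductase, which makes the deoxynucleotides for DNA synthesis, has a large subunit, Rrm1, and a small subunit, Rrm2. Rrm1 had a signal of 856 on the knockout and 1259 on the control array of replicate 1, and of 193 (knockout) and 144 (control) on those of replicate 2, with differences of -0.54 and 0.35. Rrm2 had 1276 on the knockout and 1593 on the control array in pair 1, and 531 (knockout) and 413 (control) in pair 2. Its 3 probe sets lay between -0.38 and -0.24 in pair 1 and between 0.33 and 0.35 in pair 2. Both subunits thus had the signs of the helicase genes. Tyms, the thymidylate synthase, was dim, at 79.2 on the knockout and 111 on the control array in pair 1, and at 70.9 (knockout) and 59.5 (control) in pair 2. A further Tyms probe set also names the pseudogene Tyms-ps and was not used. Pcna, the sliding clamp that holds the polymerase on DNA, had 7390 on the knockout and 8331 on the control array in pair 1, and 1781 (knockout) and 1895 (control) in pair 2. It was lower on the knockout array in both pairs, at -0.17 and -0.09, and turned to 0.07 in pair 2 with quantile normalization.

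The fits put a number on the mean of the pairs. With the replicate number as a block, the replication probe sets lay between -0.25 and 0.18, with SEs of 0.16 to 0.30 (n = 2 arrays per group). Mcm3 at its brightest probe set was at -0.21 ± 0.25 (SE, adjusted p = 0.9999, limma with block), and Rrm1 at -0.09 ± 0.24. Without the block the estimates were the same and the SEs lay between 0.62 and 1.92, since the scales of both replicate numbers then entered the error. The 8 replication genes with more than 1 probe set above the filter gave a single sign over all their probe sets in each pair.

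**Figure D2:**
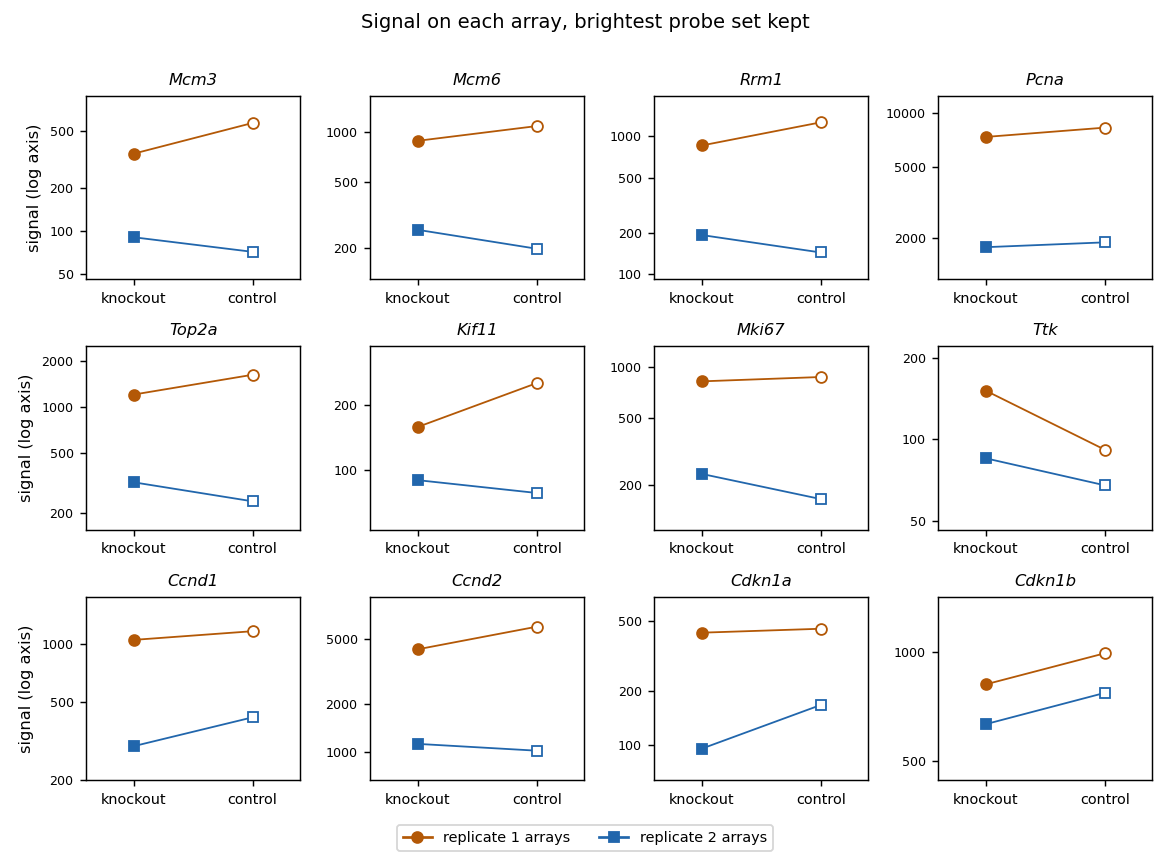
Signal on each of the 4 arrays (log axis, a scale of its own per gene) for 12 member genes, each at its brightest probe set above the filter. Filled symbols are knockout and open symbols control arrays, and a line joins arrays of the same replicate number. The lines of Mcm3, Mcm6, Rrm1, Top2a, Kif11 and Mki67 slope upward to the control array in replicate 1 and downward to it in replicate 2, while those of Cdkn1a and Cdkn1b slope upward to it in both.

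Promoters of the replication genes were searched for the GC box GGCGGG, the CCAAT box, and TTCCCGC and TTTGCGC, taken here as E2F site letters. Both strands were read, from 250 bases before to 50 bases after the start in RefSeq's GRCm38.p6 annotation. Of the 44 members 36 had a promoter in the table. TTCCCGC was in 4 of 10 replication genes, Mcm3, Mcm7, Rrm1 and Cdc6, and in 0 of 19 mitosis genes, against 5.29% of 27025 genes in the table. TTTGCGC was in 0 of 10 replication and 0 of 19 mitosis genes, against 1.86% of all. Other spellings of the E2F site were not searched, so a promoter without these letters may still hold one. GGCGGG was in 9 of 10 replication and 14 of 19 mitosis genes, against 37.9% of all, and it overlaps TTCCCGC read on the other strand. The 3 replication promoters with TTCCCGC in the 140 bases before the start are shown because they hold the letters that the mitosis promoters lack, with those letters in capitals on whichever strand they occur. They lie at chr5:138171267-138171406 (minus strand) for Mcm7, chr7:102441555-102441694 (plus strand) for Rrm1 and chr11:98908011-98908150 (plus strand) for Cdc6, and read 5′ to 3′ toward the gene.
Mcm7: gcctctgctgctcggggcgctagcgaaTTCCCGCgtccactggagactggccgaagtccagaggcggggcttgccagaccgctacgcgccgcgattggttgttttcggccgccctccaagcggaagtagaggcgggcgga
Rrm1: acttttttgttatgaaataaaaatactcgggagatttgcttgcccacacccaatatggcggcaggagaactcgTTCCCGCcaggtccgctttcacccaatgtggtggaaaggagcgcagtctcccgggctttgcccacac
Cdc6: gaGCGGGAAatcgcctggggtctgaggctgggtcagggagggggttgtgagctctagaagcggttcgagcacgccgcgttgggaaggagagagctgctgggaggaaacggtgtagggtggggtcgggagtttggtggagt

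A match is a description of the letters and not of binding. These 3 genes had pair 1 differences between -0.54 and -0.26 and pair 2 differences between 0.17 and 0.35 at their brightest probe sets. Mcm5 and Mcm6, whose promoters hold no TTCCCGC in this window, were at -0.30 and -0.28 in pair 1 and at 0.28 and 0.33 in pair 2.

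The mitosis genes had medians on the same sides as the replication genes, with members in both directions. Over 31 probe sets of 20 genes above the filter, the median was -0.19 in pair 1 and 0.10 in pair 2. In pair 1, 23 were lower on the knockout array and 8 higher, and in pair 2, 26 were higher and 5 lower. The combination of lower in pair 1 with higher in pair 2 held for 19 of the 31, or 61.3%, against 30.5% of all probe sets. The difference between the mitosis and the replication medians was not tested.

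Top2a, the topoisomerase that untangles sister chromatids, had a signal of 1209 on the knockout and 1632 on the control array of replicate 1, and of 319 (knockout) and 239 (control) on those of replicate 2. Its differences were -0.42 and 0.37, and a dimmer probe set was at -0.73 and -0.13. Mki67, the proliferation marker, had 824 on the knockout and 875 on the control array in pair 1, and 233 (knockout) and 165 (control) in pair 2. The pair 1 arrays were thus close to each other, and the pair 2 difference of 0.42 was the highest among the mitosis probe sets. Ccna2, the cyclin of S phase and G2, had probe sets at -0.46 and -0.13 in pair 1 and at 0.25 and 0.37 in pair 2. Cdk1, the kinase that drives entry into mitosis, was lower in both pairs, with 850 on the knockout and 1074 on the control array of replicate 1, and 279 (knockout) and 317 (control) on those of replicate 2. Ccnb2, a cyclin partner of Cdk1, was at -0.40 and 0.08.

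Several spindle genes had wider differences in pair 1 than in pair 2, as did the array as a whole, where 15.2% of all probe sets kept were over 1.5-fold apart in pair 1 and 2.76% in pair 2. Kif11, the kinesin that pushes spindle poles apart, had 158 on the knockout and 253 on the control array of replicate 1, and 89.5 (knockout) and 78.0 (control) on those of replicate 2. Its 3 probe sets disagreed in pair 1, from -0.58 to 0.11, and lay between 0.03 and 0.15 in pair 2. Kif23, a kinesin of the central spindle, had 223 on the knockout and 340 on the control array in pair 1, and 70.4 (knockout) and 60.3 (control) in pair 2. Both kinesins were thus well below their control in pair 1 at the brightest probe set and slightly above it in pair 2. A dim Kif23 probe set below the filter was at 0.93 and 0.12, and another at -1.22 and 0.09, so the Kif23 probes disagreed in pair 1. Plk1, a mitotic kinase, was at -0.43 and 0.07, and Cenpe, a kinetochore kinesin, at 0.21 and 0.10. Aurka, the spindle pole kinase, was at 0.18 and 0.06. The kinesin gene Kif20a had no probe set above the filter, with 99.1 on the knockout and 96.5 on the control array in pair 1, and 47.9 (knockout) and 36.1 (control) in pair 2.

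Checkpoint and chromosome genes were divided in pair 1. Bub1b, a kinase-like protein of the spindle checkpoint, had 213 on the knockout and 338 on the control array of replicate 1, and 168 (knockout) and 142 (control) on those of replicate 2, and the checkpoint kinase Bub1 was at -0.19 and 0.13. Ttk, another checkpoint kinase, went the other way in pair 1, with 151 on the knockout and 91.7 on the control array, and had 85.3 (knockout) and 67.9 (control) in pair 2. A dim Ttk probe set below the filter read 7.1 on the knockout and 121 on the control array in pair 1, so the Ttk probes disagreed. Cdca8, the chromosomal passenger protein borealin, had 406 on the knockout and 713 on the control array in pair 1, and 131 (knockout) and 120 (control) in pair 2. Its 3 probe sets ran from -0.77 to 0.23 in pair 1. The other passenger genes were closer to 0, with Birc5 (survivin) at -0.14 and -0.02 and Aurkb, the passenger kinase, at 0.01 and 0.08. Cdca3, which promotes mitotic entry, had 368 on the knockout and 539 on the control array in pair 1, and 187 (knockout) and 181 (control) in pair 2.

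Cdc20, the activator of the anaphase-promoting complex, was at -0.20 and 0.14, and Cenpa, the histone of centromeres, at -0.45 and -0.10. Nek2, a centrosomal kinase, had probe sets from -0.42 to 0.23 in pair 1 and from -0.13 to 0.09 in pair 2. Of 8 mitosis genes with several probe sets above the filter, 4 had a single sign in pair 1, 6 in pair 2 and 3 in both. In limma's blocked fit the mitosis probe sets lay between -0.43 and 0.40, with SEs of 0.17 to 0.27.

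**Figure D3:**
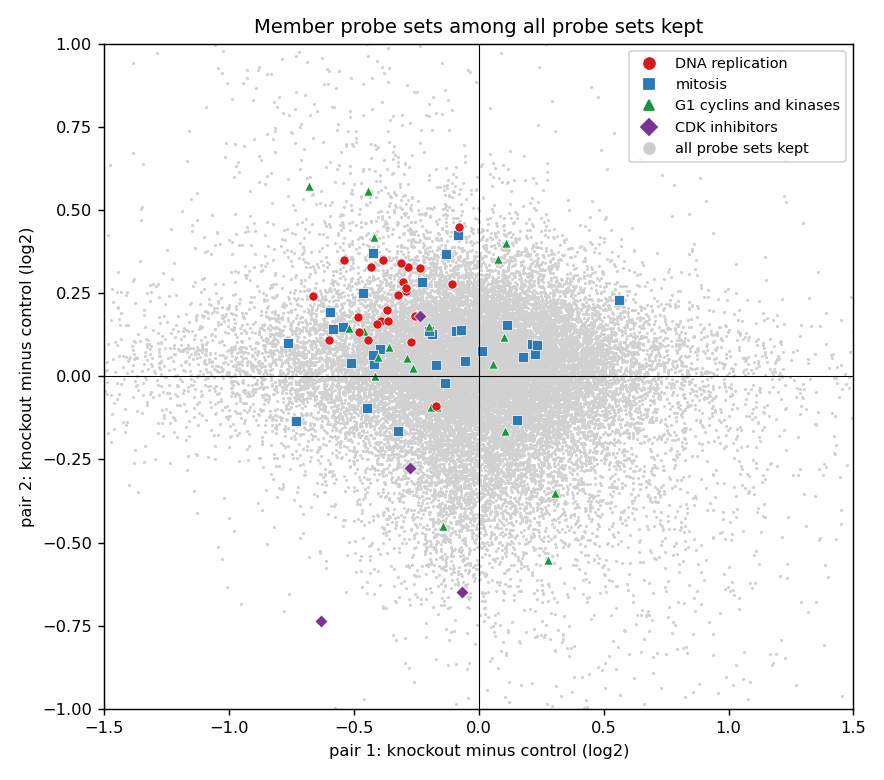
Difference in pair 1 (horizontal) against difference in pair 2 (vertical), both knockout minus control in log2, for 80 member probe sets by role over all 27022 probe sets above the filter (grey). The axes stop at 1.5 and 1, which leaves out 448 grey points and 0 members. Of the 24 replication points 23 lie at the upper left, and the CDK inhibitor points lie to the left, with Cdkn1a and Cdkn1b below 0.

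Promoters of mitosis genes were searched for the CHR letters TTTGAA on both strands in the same windows. TTTGAA was in 14 of 19 mitosis genes and in 1 of 10 replication genes, Mcm2, against 20.2% of all genes in the table. Within 50 bases of the start it was in 13 of 19 mitosis genes, 0 of 10 replication genes and 5.72% of all. The CCAAT box was in 18 of 19 mitosis and 8 of 10 replication genes, against 41.1% of all. The promoters of 5 mitosis genes with TTTGAA in the 140 bases before the start are shown because this element separates them from the replication promoters above, with its letters in capitals on either strand. They lie at chr11:99024190-99024329 (minus strand) for Top2a, chr19:37376242-37376381 (plus strand) for Kif11, chr4:118437344-118437483 (minus strand) for Cdc20, chr10:69352913-69353052 (minus strand) for Cdk1 and chr7:135716380-135716519 (minus strand) for Mki67 in GRCm38.p6.
Top2a: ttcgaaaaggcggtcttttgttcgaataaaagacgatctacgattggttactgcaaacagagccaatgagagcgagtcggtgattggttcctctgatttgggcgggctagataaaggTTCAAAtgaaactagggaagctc
Kif11: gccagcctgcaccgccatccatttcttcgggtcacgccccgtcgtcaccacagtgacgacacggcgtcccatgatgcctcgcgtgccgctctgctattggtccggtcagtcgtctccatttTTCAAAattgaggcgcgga
Cdc20: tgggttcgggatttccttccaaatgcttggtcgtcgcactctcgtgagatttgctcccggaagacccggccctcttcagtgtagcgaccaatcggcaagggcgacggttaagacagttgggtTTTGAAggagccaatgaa
Cdk1: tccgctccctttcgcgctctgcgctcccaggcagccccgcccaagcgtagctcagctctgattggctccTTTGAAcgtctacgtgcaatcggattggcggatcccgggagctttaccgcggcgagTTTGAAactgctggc
Mki67: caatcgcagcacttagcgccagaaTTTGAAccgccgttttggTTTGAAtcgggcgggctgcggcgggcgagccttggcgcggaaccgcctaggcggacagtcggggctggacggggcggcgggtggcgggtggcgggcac

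Cdk1 and Mki67 each hold the letters at 2 places in the printed stretch, and Top2a, Kif11 and Cdc20 at 1. The differences of these 5 genes ran from -0.58 (Kif11) to -0.08 (Mki67) in pair 1 and from -0.17 (Cdk1) to 0.42 (Mki67) in pair 2, so genes sharing the element did not share a size or, in pair 2, a side.

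The G1 genes were mixed, and the D-type cyclins differed from each other. Ccnd2, the D cyclin of many neural progenitors, had 4341 on the knockout and 5991 on the control array of replicate 1, and 1127 (knockout) and 1023 (control) on those of replicate 2. Of its 7 probe sets 6 were lower in pair 1, over a range of -0.68 to 0.11, and all 7 were higher in pair 2, from 0.09 to 0.57. Ccnd1 had 1044 on the knockout and 1156 on the control array in pair 1, and 299 (knockout) and 420 (control) in pair 2. Its 3 probe sets lay between -0.14 and 0.30 in pair 1 and between -0.55 and -0.35 in pair 2. In pair 2 every Ccnd1 probe set was thus lower on the knockout array and every Ccnd2 probe set higher. Ccnd3 had 793 on the knockout and 917 on the control array in pair 1, and 192 (knockout) and 170 (control) in pair 2.

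The E cyclins start S phase together with Cdk2. Ccne1 had 228 on the knockout and 313 on the control array in pair 1, and 99.6 (knockout) and 94.5 (control) in pair 2, with a dimmer probe set at 0.10 and -0.16. Ccne2 had 165 on the knockout and 155 on the control array in pair 1, and 162 (knockout) and 120 (control) in pair 2, so it was higher on the knockout array in both pairs. The kinases were close to their controls at their brightest probe sets. Cdk2 had 267 on the knockout and 256 on the control array in pair 1, and 125 (knockout) and 121 (control) in pair 2. Cdk4, a partner of the D cyclins, had 3576 on the knockout and 4088 on the control array in pair 1, and 586 (knockout) and 626 (control) in pair 2. Its 3 probe sets lay between -0.42 and -0.19 in pair 1 and between -0.09 and 0.05 in pair 2. Cdk6, the other D cyclin partner, had 393 on the knockout and 365 on the control array in pair 1, and 164 (knockout) and 148 (control) in pair 2. Over the 21 probe sets of the G1 genes the median was -0.20 in pair 1 and 0.06 in pair 2. Lower in pair 1 with higher in pair 2 was combined by 11 of them, or 52.4% against 30.5% of all probe sets. Of these 11, 6 were probe sets of Ccnd2. At the brightest probe set of each gene 3 of 8 genes combined both, or 37.5% against 27.4% of all genes. In limma's blocked fit the 21 probe sets lay between -0.30 and 0.25.

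Among the CDK inhibitors, Cdkn1a and Cdkn1b were lower on the arrays labelled knockout in both pairs. With the labels of either pair exchanged, their signs would differ between the pairs while those of the replication genes other than Pcna would match. Cdkn1a (p21, the inhibitor that p53 induces) had 428 on the knockout and 451 on the control array of replicate 1, and 94.8 (knockout) and 167 (control) on those of replicate 2 at its brighter probe set. Its dimmer probe set had 95.8 on the knockout and 166 on the control array in pair 1, and 71.7 (knockout) and 141 (control) in pair 2. In pair 2 the knockout array was thus well below its control at both probe sets, and in pair 1 at the dimmer probe set. Cdkn1a's dimmer probe set, at -0.63 and -0.74, and Cdkn1b's were the members over 1.2-fold lower in both pairs, 2 of 80 against 1.26% of all probe sets. The Cdkn1a probe set had the lowest p of the members in limma's blocked fit, at -0.68 ± 0.23 (SE, n = 2 arrays per group, unadjusted p = 0.0213, adjusted p = 0.9999), and was not called.

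Cdkn1b (p27, which restrains G1 CDKs as progenitors leave the cycle) had 815 on the knockout and 993 on the control array of replicate 1, and 632 (knockout) and 771 (control) on those of replicate 2. Its difference was -0.28 in pair 1 and -0.27 in pair 2, or -0.27 ± 0.16 in the blocked fit (SE, unadjusted p = 0.138 in limma). The knockout arrays were thus below their control by a similar step in both pairs at this probe set. A dim Cdkn1b probe set below the filter was at -0.80 and -0.05. Cdkn1c (p57, another inhibitor of G1 CDKs) had 787 on the knockout and 934 on the control array in pair 1, and 236 (knockout) and 204 (control) in pair 2, and so went in opposite directions.

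Few members were over 1.5-fold apart in a pair. In pair 1, 7 of the 80 member probe sets were over 1.5-fold lower on the knockout array, against 8.99% of all probe sets, and 0 were over 1.5-fold higher, against 6.25%. The 7 belonged to Mcm3, Bub1b, Cdca8, Top2a, Ccnd2 and Cdkn1a. In pair 2, 2 members were over 1.5-fold lower, both of Cdkn1a, against 1.69% of all, and 0 were over 1.5-fold higher, against 1.07%. The count of lower members in pair 1 is thus near the share of all probe sets and is no result about the members. At a lower step, 11 of the 80 member probe sets were over 1.2-fold lower in pair 1 and over 1.2-fold higher in pair 2, against 2.94% of all. They belonged to Mcm4, Mcm5, Mcm6, Mcm7, Rrm1, Rrm2, Top2a and Ccnd2.

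Of the 26 dim member probe sets below the filter, 15 were lower in pair 1, between -1.96 and 1.10, or 57.7% against 58.7% of all 18015 probe sets below it. In pair 2, 11 were higher, between -0.21 and 0.33, or 42.3% against 58.2%. Both signs of the replication genes together were found in 5 of the 26, or 19.2% against 34.4%.

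Other genes of the cell cycle, from longer lists, had medians on the same sides in each pair. Over all 12581 genes above the filter, 51.4% were lower in pair 1, 49.8% were higher in pair 2 and 27.4% combined both. Of 40 further replication genes 24 lay below their control in pair 1 and 27 above it in pair 2, with medians of -0.08 and 0.07 and quartiles on both sides of 0 in each pair. Both signs were combined by 17 of the 40 (42.5%), the 60% lower in pair 1 stand against 51.4% of all genes, and limma called 0 of them in either direction in the fits with and without the block. Gmnn, the inhibitor of origin licensing, was at -1.03 and -0.10, Dbf4, the activator of the Cdc7 kinase, at -0.49 and 0.28, and Prim2, a primase subunit, at -0.48 and 0.33. Orc4, an origin recognition subunit, was higher in both pairs, at 0.24 and 0.93, and had signals of 876 and 1139 on the knockout and 736 and 582 on the control arrays. Of 52 further mitosis genes 39 lay below their control in pair 1 and 39 above it in pair 2, with medians of -0.24 and 0.12, both signs combined in 29 (55.8%) and 0 called. Melk, a mitotic kinase, was at -1.11 and 0.14, Cenpk, a kinetochore subunit, at -1.03 and 0.11, Kif18a, a kinesin, at -0.70 and 0.38, and Hmmr, a spindle protein, at -0.61 and 0.33. Of 33 cell cycle regulators 23 lay below their control in pair 1 and 25 above it in pair 2, with medians of -0.24 and 0.11, both signs combined in 20 (60.6%) and 0 called. Foxm1, the transcription factor of mitosis genes, was at -1.18 and 0.08, E2f1, an activating E2F, at -0.62 and 0.21, E2f6, a repressing E2F, at -0.83 and 0.06, and Mycn, a growth regulator of neural progenitors, at -0.31 and 0.53.

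**Figure D4:**
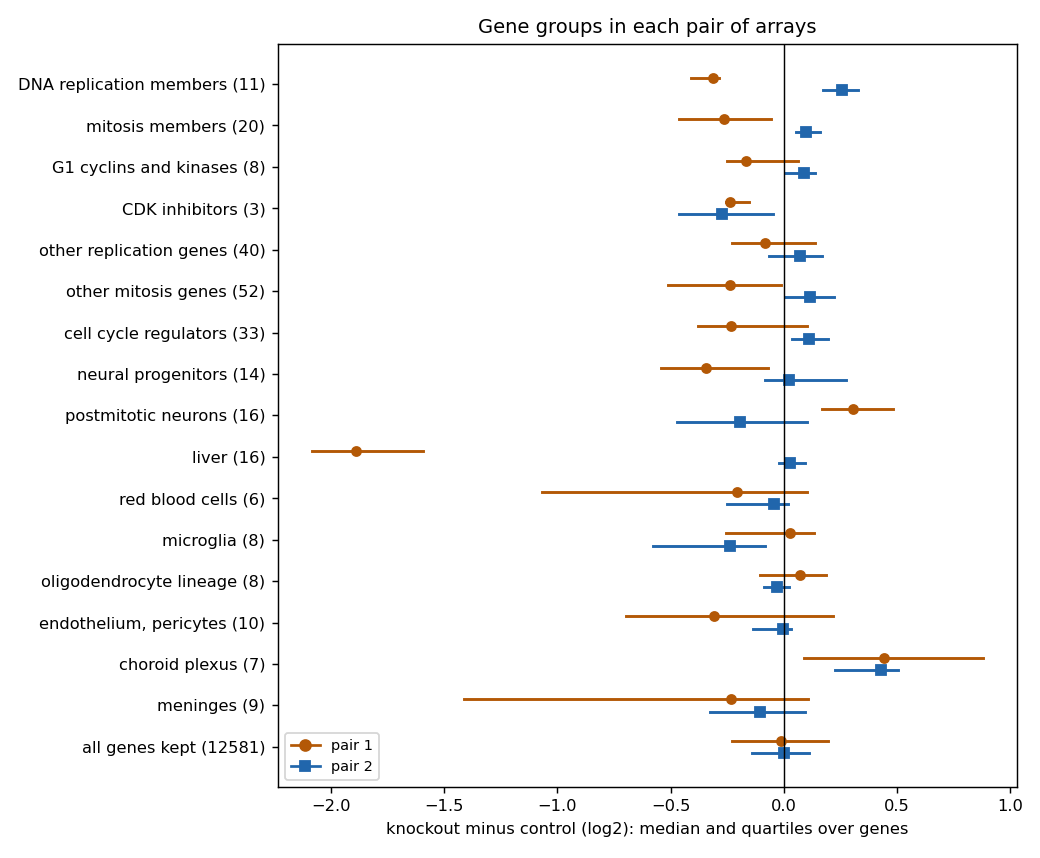
Median (symbol) and quartiles (bar) over genes of knockout minus control in log2, in pair 1 (circles) and pair 2 (squares), for the 4 roles, the longer cell cycle lists, lists of cell type markers and all genes above the filter, with the number of genes in brackets. The replication bars lie left of 0 in pair 1 and right of it in pair 2, the postmitotic neuron medians lie on the opposite sides, and the liver bar lies far left in pair 1 alone.

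Markers of progenitors, neurons and liver also differed within the pairs. Of 14 neural progenitor genes 11 lay below their control in pair 1 and 8 above it in pair 2, with medians of -0.34 and 0.02, and their summed signal was 54273 and 17361 on the knockout and 60486 and 16976 on the control arrays of replicates 1 and 2. Pax6, a factor of radial glia, was at -1.13 and 0.47, Neurog2, a proneural factor, at -0.56 and 0.31, Hopx at -0.59 and 0.26 and Hes1, a Notch target, at -0.79 and -0.10. Of 16 genes of postmitotic neurons, 14 had a higher and 2 a lower signal on the knockout array of pair 1, and 11 a lower one in pair 2; the medians were 0.30 and -0.19. Their summed signal was 115996 and 28493 on the knockout and 103580 and 29708 on the control arrays. The synaptic kinase gene Camk2a had 952 and 375.3 on the knockout and 408.6 and 1058 on the control arrays. Gad2, which makes GABA, was at 1.14 and -0.16, and Rbfox3 at 0.35 and -0.82. Of 16 liver genes above the filter 15 were lower in pair 1, with medians of -1.89 in pair 1 and 0.03 in pair 2. Without Ttr, which the choroid plexus also makes, the summed signal of 16 liver genes was 22675 and 694 on the knockout and 69415 and 627 on the control arrays. Of all these lists 0 genes were listed at 0 on any array. What these tissues contributed to the values of the cell cycle genes in either pair was not tested.

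Other cell types had medians that did not combine the signs of the replication genes, lower in pair 1 and higher in pair 2. Choroid plexus genes were at 0.44 and 0.43 (7 genes), with Folr1 at 0.91 and 0.53. Microglial genes were at 0.03 and -0.24 (8 genes). Of these 8, 5 had their larger value on the knockout array of pair 1 and 3 on its control array. For 7 of the 8 the knockout array of pair 2 was below its control. The microglial genes C1qa and Tyrobp were at -0.37 and -0.53 in pair 1 and at -0.70 and -0.54 in pair 2. Aif1 and C1qc were at 0.70 and 0.05 in pair 1 and at -0.28 and -0.85 in pair 2. Genes of the oligodendrocyte lineage were at 0.07 and -0.03 (8 genes), endothelial and pericyte genes at -0.31 and -0.01 (10 genes), meningeal genes at -0.23 and -0.11 (9 genes) and red blood cell genes at -0.21 and -0.04 (6 genes). Among the 9 meningeal genes 6 were lower in pair 1 and 4 were higher in pair 2. Both signs were combined by 3 of them (33.3% against 27.4% of all genes). Their summed signal was 8558 and 1512 on the knockout and 10386 and 1252 on the control arrays of replicates 1 and 2. This sum had the signs of the replication genes. Dcn was at -1.74 and 1.36, Ogn at -1.41 and 0.24, Slc6a13 at -1.47 and -0.20, and Ptgds at 0.39 and -1.01. The part of these cell types in the values of the cell cycle genes was not tested.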

How the data were processed

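The authors deposited a linear intensity per probe set and array, computed by MAS5 according to the submitters' processing notes. The version, scaling target and background setting are not given in the sources used here. The platform annotation gave 34945 probe sets 1 symbol, 932 several and 9160 none, and names were taken from the first kind alone. Analysis used log2(signal + 32.56) and the 27022 probe sets whose mean exceeded the 40th percentile. The pseudocount equals the 20th percentile over all arrays and understates differences of dim genes. It shrinks a difference more in the pair with lower signals, and the mean signal was lower on the replicate 2 arrays. Knockout minus control was fitted with limma 3.58.1 in R 4.3.3 (lmFit, then eBayes with trend) over the 4 arrays without a covariate. Benjamini-Hochberg adjustment ran over all probe sets kept, with a threshold of 0.05. A run on simulated data checked only that the mean estimate returned a known difference. Its noise was equal over all probe sets and its changes were alike in both pairs, unlike these data. Since the scale of the arrays coincides with the replicate number, the fit with that number as a block and the within-pair values are given beside it. With 2 arrays per group, array number sets the precision. For each SE, limma draws the probe set's own variance toward a trend over all probe sets. In the blocked fit this used 1 residual and 5.98 prior degrees of freedom. An SE is thus not the spread of that gene's own arrays alone. Without the block the prior was infinite, so the trend alone set the SE.

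The members, roles and lists were chosen with earlier results of these data known. Array values are given for 10 fixed members and, per role, up to 6 further members with the largest mean absolute within-pair difference at their brightest probe set, other members by their differences. Up to 4 genes per further list were named by the same measure, fewer where they added little. Members whose probe sets disagreed in sign by over 1.5-fold in a pair are also given, and the genes past 1.2-fold were picked after their values were seen. Promoter letters were read from the RefSeq table (GRCm38.p6), and the array files name no build. Alternatives tried were centring on the 75th percentile, quantile normalization, scaling to 1 trimmed mean, a pseudocount at the 40th percentile, a floor of 16, a filter at the 60th percentile, no filter, 1 probe set per gene, eBayes without trend, the block, and leaving out each array.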

Additional observations from a re-analysis of the deposited data

How the results depend on the processing

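Limma called 0 probe sets and 0 members under each alternative that kept all 4 arrays, also with the block and with the block and quantile normalization. The fits without each array in turn had no block, so a lone array stood against arrays of both scales. The scale then entered both the difference and the error, and the lone array was assumed to vary like the others. Their calls are therefore given no weight. Arrays sharing a replicate number deviated together from the group means (correlation 0.837), while the labels do not say what a number marks; the block changed no call and left 330 of 27022 probe sets under an unadjusted p of 0.05, against 5 without it. Each role's median kept its sign in both pairs under the 8 alternatives for the within-pair values. The pair 2 median of the CDK inhibitors was -0.65 with quantile normalization and -0.27 with no filter, with the filter at the 60th percentile and with 1 probe set per gene, which take 5, 3 and 3 probe sets in place of 4; with quantile normalization it also took 4, and the brightest Cdkn1a probe set was at -1.08 in pair 2. The share of probe sets lower in pair 1 and higher in pair 2 stayed within 1.5 times its value in each role tested, and was 77.4% for replication with no filter. Members over 1.5-fold lower in pair 1 numbered 2 with quantile normalization, 4 with 1 trimmed mean, 3 with the pseudocount at the 40th percentile, 12 with no filter, 4 with the filter at the 60th percentile and 3 with 1 probe set per gene. Over 1.5-fold higher in pair 1 were 1 with the floor of 16 and 4 with no filter. In pair 2, 4 were lower with quantile normalization and 1 with the pseudocount at the 40th percentile, the filter at the 60th percentile and 1 probe set per gene, and 3 were higher with quantile normalization, 1 with 1 trimmed mean and 2 with the floor of 16. The cause of these moves was not tested. Dim probe sets limit Tyms, Ttk and Kif20a, and those of Kif23 disagreed in pair 1.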
